A study of Mus musculus with 12 samples.

Results

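The genes examined were 38 matrix genes other than collagens, with the genes that remodel matrix and the TGF-beta genes, out of 35523 genes to which transcripts were summed. They were picked by name, with no use of measured values, and fell into 7 roles. The adhesive and matricellular glycoproteins were Fn1, Sparc, Postn, Thbs1, Thbs2, Tnc and Tgfbi. The proteoglycans were Bgn, Dcn, Lum and Vcan. The elastic fibre and cross-linking genes were Fbn1, Eln, Fbln2, Fbln5, Lox, Loxl1 and Loxl2. The proteases and inhibitors were Mmp2, Mmp9, Mmp14, Timp1, Timp2 and Timp3. The TGF-beta genes were Tgfb1, Tgfb2, Tgfb3, Tgfbr1, Tgfbr2, Ltbp1 and Ltbp2. Serpinh1, a collagen chaperone, stood alone, and the basement membrane genes were Nid1, Nid2, Hspg2, Lama4, Lamb1 and Lamc1.

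RNA was sequenced from primary stromal vascular fraction (SVF) cells, the mixed cells left after adipocytes are removed from fat, taken from the epididymal adipose tissue of 12-week-old male Lepob/Lepob mice, which lack leptin in all groups. In culture the cells received an adipogenic cocktail (3-isobutyl-1-methylxanthine, dexamethasone and insulin) with either 1 µM rosiglitazone (Rosi), which activates the nuclear receptor PPARγ, or DMSO vehicle (Veh), so the cocktail was common to all libraries. The protocol places the harvest at day 4 of differentiation, whereas the design text gives 3 days. Input is total RNA and polysome is RNA from sucrose gradient fractions with at least 3 ribosomes per mRNA by the design text (over 3 by the study's article), which gave 4 groups, input and polysome of Veh and input and polysome of Rosi. How many mice or cultures stood behind each library, and whether the input and polysome libraries of one number came from one dish, is not given in the sources used here.

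Each group had 3 deposited libraries. Replicates 2 and 3 of input Veh held identical values and were counted once, which left 11 libraries, with n = 2 for input Veh and n = 3 for the others, of 17.4 to 24 M estimated reads. Polysome Veh replicate 1 lay apart on the first principal component, at −53.1 against −27.2 and −21.4 for the other polysome Veh libraries. Summed markers of macrophages reached 16684 to 19218 CPM (counts per 1e+06 counts) in input Veh and 11951 to 14024 in input Rosi, and those of smooth muscle and pericytes 12432 to 12572 and 10985 to 11536. Summed adipocyte markers were 454 to 493 in input Veh and 1207 to 1451 in input Rosi, and 6 of the 9 tested were called higher. Progenitor markers were 823 to 919.7 and 799 to 874. Of 10 lymphocyte markers, Cd3e, Cd3d, Trbc1 and Trbc2 were at 0 in all libraries. In such bulk samples, fewer cells of a type and less RNA per cell cannot be told apart.

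Matrix outside the collagens does several jobs. Fibronectin and the matricellular proteins carry signals between fibres and integrins, small proteoglycans bind collagen and growth factors, fibrillin and elastin form elastic fibres that lysyl oxidases cross-link, and laminins, nidogens and perlecan build the basement membrane that wraps every adipocyte. Matrix metalloproteinases and their TIMP inhibitors set how fast this matrix turns over. TGF-beta is secreted in a latent form, held in the matrix by latent binding proteins, and drives fibroblasts to make more matrix, and in obese fat these genes are known for their part in fibrosis.

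The level of each gene was read in TPM (transcripts per 1e+06 transcripts), a unit corrected for length that allows genes to be set side by side. In input Veh, 17 of the 38 genes had a mean over 100 TPM and 3 were under 5 TPM. Timp1, an inhibitor of metalloproteinases, was the most abundant of the 38 in every group, at 4346 and 3916 TPM in input Veh, 4248, 4258 and 4024 in input Rosi, 4456, 4091 and 4449 in polysome Veh and 4299.6, 4615 and 4296 in polysome Rosi. In TPM the Veh groups overlapped, while all 3 polysome Rosi values lay above the input Rosi values. In CPM, on which the tests below rest, the Rosi groups of Timp1 overlapped too. Its log2 fold change of polysome over input in Rosi was 0.10 (edgeR adjusted p = 0.367). Sparc, a calcium-binding glycoprotein that helps collagen assemble, held 4177 and 3650.3 TPM in input Veh and 3934, 3559.7 and 4042 in input Rosi. Its polysome values were lower, at 2572, 2465 and 2655 TPM in Veh and 2795, 2684 and 2454 in Rosi. The most abundant proteoglycan was Bgn (biglycan), at 1854 ± 124 TPM in input Veh (SD, n = 2). The collagen and elastin cross-linker Lox stood at 972 ± 32.1 TPM, and Serpinh1, which folds procollagen in the endoplasmic reticulum, at 842 ± 95.6 TPM (SD, n = 2). Among the TGF-beta genes the ligand Tgfb1 was the highest, at 203 ± 19.8 TPM, and in the basement membrane it was Hspg2 (perlecan), at 151 ± 19.8 TPM (SD, n = 2).

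At the other end, Mmp9, a gelatinase typical of myeloid cells, was at 0.149 ± 0.104 TPM in input Veh, and Eln (elastin), the elastic core protein, and Lum (lumican) were at 1.80 ± 0.444 and 1.30 ± 0.547 TPM (SD, n = 2). The 38 genes together took 1.69 ± 0.137% of all TPM in input Veh, 1.79 ± 0.0449% in input Rosi, 1.47 ± 0.104% in polysome Veh and 1.50 ± 0.0778% in polysome Rosi (SD, n = 2, 3, 3 and 3).

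**Figure D1:**
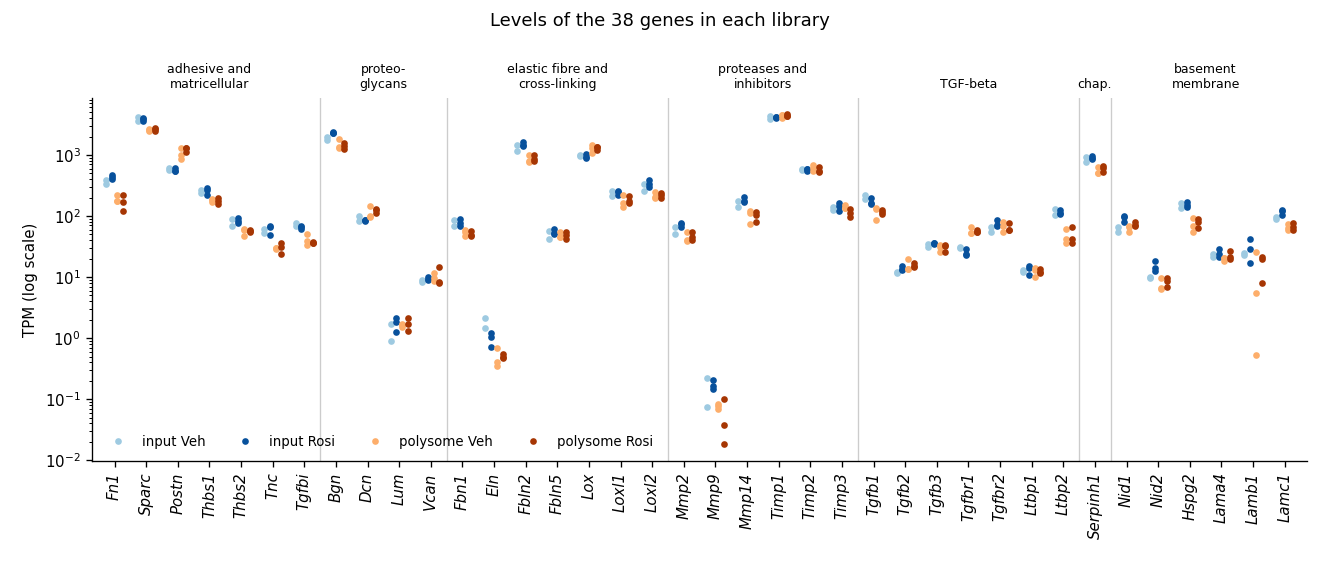
TPM on a log scale (y axis) of the 38 genes (x axis, grouped by role; chap., collagen chaperone) in each of the 11 libraries, 1 point a library, coloured by group. Timp1 and Sparc stand highest, Mmp9, Eln and Lum lowest, and the Lamb1 points of polysome Veh spread widest.

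Lamb1, the laminin β1 chain, varied widely within groups, and its results are uncertain. It was at 78.9, 2.38 and 9.89 CPM in polysome Veh, 33.7, 96.6 and 91.7 in polysome Rosi, 97.9 and 103 in input Veh and 119.6, 148 and 74.1 in input Rosi. A transcript of 5778 bases in the files that is not in the GENCODE M21 annotation ran opposite to it, at 0, 70.3 and 69.3 CPM in polysome Veh, 59.0, 7.88 and 0 in polysome Rosi, 11.7 and 0 in input Veh and 18.5, 0 and 81.8 in input Rosi. Across the 11 libraries this transcript had the lowest correlation with Lamb1 (r = −0.78) of the 77 unannotated transcripts compared, and the main annotated Lamb1 transcript is 5784 bases long. The sum of both was steadier, at 78.9, 72.7 and 79.2 CPM in polysome Veh, 92.7, 105 and 91.7 in polysome Rosi, 109.7 and 103 in input Veh and 138, 148 and 156 in input Rosi. The transcript was chosen after its values were seen, as the one running most opposite to Lamb1. A steadier sum with smaller errors follows in part from that choice, so no p-value is given for the sum. The references used here do not name the gene of this transcript, so Lamb1 is counted below by its annotated transcripts alone.

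The first comparison asked how Rosi changed the total RNA of these genes. Two-sided edgeR quasi-likelihood tests were run over 13603 genes, and a call needed both an adjusted p below 0.05 and more than 0.2 in absolute log2 fold change. All 38 genes were tested, 2 were called higher and none lower, against a background of 1.13% of genes called higher and 0.206% called lower. Both were nidogens, the glycoproteins that bridge the laminin and collagen IV networks of the basement membrane. The median log2 fold change of the 38 genes was 0.06, against 0.01 over all genes.

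Nid1 (ENSMUSG00000005397, chromosome 13, 13437551 to 13512269, mm10) was at 321 and 288 CPM in input Veh and 399, 459 and 461 CPM in input Rosi. Every Rosi library lay above both Veh libraries. The rise was 1.52-fold, a log2 fold change of 0.60 ± 0.10 (SE; edgeR adjusted p = 0.011). Nid2 (ENSMUSG00000021806, chromosome 14, 19751265 to 19811787) went from 31.0 and 30.4 CPM to 39.6, 41.8 and 42.3 CPM, again with no overlap, a log2 fold change of 0.49 ± 0.10 (SE; edgeR adjusted p = 0.0342). Over 18 alternatives the log2 fold change stayed between 0.51 and 0.69 for Nid1 and between 0.43 and 0.57 for Nid2. Nid1 kept its call in 16, and lost it under limma (adjusted p = 0.119) and without input Veh replicate 2 (0.52, adjusted p = 0.171). Nid2 kept its call in 10. It was lost with the replicate block (adjusted p = 0.228), limma (0.223), protein-coding transcripts only (0.0633) or 1 fit of 4 groups (0.188), and without input Veh replicate 1 (0.0884) or 2 (0.273), input Rosi replicate 2 (0.125) or input Rosi replicate 3 (0.119). Leaving out an input Veh library leaves 1 in that group, which is then assumed to vary like the Rosi libraries. Between the same libraries the summed adipocyte markers were higher in Rosi and the summed macrophage and smooth muscle markers lower, as given above. Taken singly, 1 of 10 macrophage markers was called lower and none higher. Of 9 smooth muscle markers tested, 1 was called higher and none lower. The part of these markers in the nidogen result was not tested.

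The remaining basement membrane genes did not pass. Lamc1, the laminin γ1 chain, had a log2 fold change of 0.20 ± 0.11, Lama4, the laminin α4 chain, 0.07 ± 0.10, and Hspg2 −0.16 ± 0.10 (SE). Lamb1 alone had 0.24 ± 0.20 (SE; edgeR adjusted p = 0.545), and with the unannotated transcript added 0.54 ± 0.10 (SE).

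Among the TGF-beta genes, no member passed. The type I receptor Tgfbr1 was at 141 and 148 CPM in input Veh and 131, 102 and 102 in input Rosi, all Rosi values below both Veh values, a difference of −0.30 ± 0.11 on the log2 scale (SE; edgeR adjusted p = 0.178). The type II receptor Tgfbr2 was at 312 and 298 CPM in input Veh and 346, 310.1 and 367 in input Rosi, with overlap, a log2 fold change of 0.23 ± 0.09 (adjusted p = 0.234). The ligand Tgfb1 was at 294 and 367 CPM in input Veh and 308, 238 and 219.8 in input Rosi, also with overlap (−0.31 ± 0.13, adjusted p = 0.246). In input Rosi, replicate 1 was the highest for Tgfb1 and Tgfbr1, and without it Tgfbr1 (−0.42, adjusted p = 0.004), Tgfb1 (−0.45, adjusted p = 0.00519) and Eln (−1.03, adjusted p = 0.0227) were called lower in edgeR. The count of all genes called varied widely as single libraries were left out, as given at the end. These calls are therefore not read as particular to these genes. Tgfb2 and Tgfb3, the other ligands, Ltbp1, which tethers latent TGF-beta to the matrix, and Ltbp2 had log2 fold changes from −0.07 (Ltbp2) to 0.07 (Tgfb3).

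In the other roles, no gene passed, and those of smallest p were as follows. Bgn was at 2754 and 2684 CPM in input Veh and 3086, 2955 and 3067 in input Rosi, with no overlap (0.23 ± 0.08, adjusted p = 0.159). Eln was at 6.36 and 4.42 CPM in input Veh and 3.25, 2.07 and 2.90 in input Rosi (−0.91 ± 0.26, adjusted p = 0.108), a gene close to the limit of counting. Tgfbi, an adhesive protein that TGF-beta induces, was at 140.0 and 167 CPM in input Veh and 138, 118 and 121 in input Rosi (−0.22 ± 0.10, adjusted p = 0.292). Mmp14, a membrane-bound protease that activates Mmp2, was at 333 and 296 CPM in input Veh and 337, 315 and 360.2 in input Rosi (0.17 ± 0.09, adjusted p = 0.378). Serpinh1 was at 1431 and 1312 CPM in input Veh and 1385, 1269 and 1373 in input Rosi, with overlap (0.04 ± 0.08, adjusted p = 0.846). Input Veh and input Rosi did not overlap for 10 of the 38 genes, 3 of them higher in Rosi and 7 lower, against 36.7% of all genes tested.

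The second comparison asked the same of polysomal RNA. None of the 37 members tested was called, while 0.655% of the 13436 genes tested were (Mmp9 fell under the count filter). Without polysome Veh replicate 1, which stood apart, Lamb1 was called and no other member. At an unadjusted p under 0.05 stood 2 members, Timp3 and Nid2, and 4.73% of all genes, and DESeq2 likewise called no member. The median log2 fold change was below 0.01 in size for the members. Polysome Veh and polysome Rosi did not overlap for 3 of the 37, against 8.96% of all genes: Nid1 was higher in Rosi, and Timp3 and Eln lower.

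Timp3 (ENSMUSG00000020044, chromosome 10, 86300372 to 86349506), the inhibitor that binds the matrix itself and also blocks ADAM proteases, had the smallest p. It was at 513, 497 and 517 CPM in polysome Veh and 439.5, 405 and 366 in polysome Rosi, but 526 and 507 in input Veh and 462, 528 and 555 in input Rosi. The polysome groups were separate and the input groups overlapped. Its log2 fold change in polysome was −0.34 ± 0.10 (SE; edgeR adjusted p = 0.422). Nid1 was at 332, 268 and 313 CPM in polysome Veh and 359.7, 341 and 338 in polysome Rosi (0.18 ± 0.11, adjusted p = 1). Nid2 was at 18, 18.8 and 24 CPM in polysome Veh and 28.8, 25.6 and 23.3 in polysome Rosi, overlapping between 23.3 and 24 (0.35 ± 0.14, adjusted p = 0.96). Vcan, the large hyaluronan-binding proteoglycan, was at 44.8, 29.1 and 31.8 CPM in polysome Veh and 34.6, 38.3 and 38.7 in polysome Rosi, with overlap (0.07 ± 0.15, adjusted p = 1). Lamb1 had the largest value, 1.28 ± 0.79 (SE; adjusted p = 1), and was called without polysome Veh replicate 1 (3.61, adjusted p = 0.00691), the library with nearly all of that group's annotated Lamb1 reads. With the unannotated transcript added it was 0.31 ± 0.10 (SE).

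**Figure D2:**
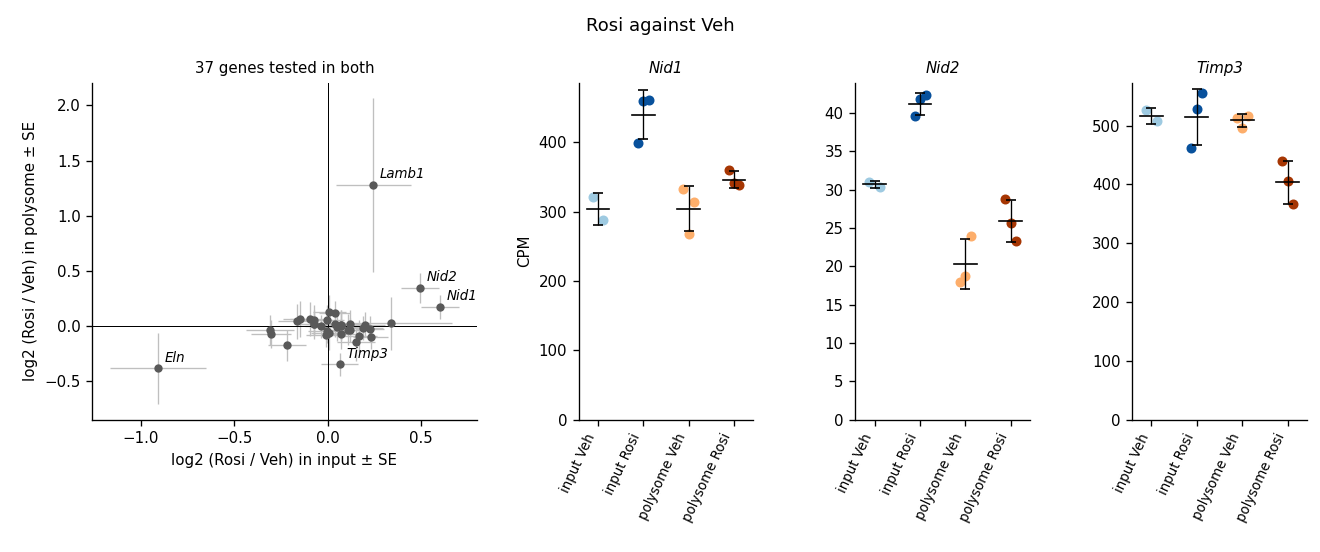
Left, log2 fold change of Rosi over Veh in input (x axis) and in polysome (y axis), each with its SE, for the 37 genes tested in both. Right, CPM (y axis, from 0) of Nid1, Nid2 and Timp3 in each library by group, with the mean and SD. The nidogens stand to the right, Timp3 lies below 0 on the polysome axis, and Lamb1 carries the widest error.

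Polysome against input gave the largest differences. Here the test pooled all 4 groups in 1 fit over 14042 genes and a call needed an absolute log2 fold change over 1, a change of at least 2-fold. In Veh, 6 of the 38 genes were called lower in polysome and none higher, with 6.68% and 2.99% of all genes called in those directions. In Rosi, 7 were called lower and 1 higher, against 4.86% and 6.49%. By an adjusted p under 0.05 alone, 22 were lower and 2 higher in Veh (all genes, 24.6% and 24.7%), and 25 lower and 4 higher in Rosi (26% and 29.1%). The log2 fold change was below 0 for 30 of the 38 in Veh and 32 in Rosi, where 48.9% and 49.9% of all genes lay below 0. Without polysome Veh replicate 1, 7 were called lower in Veh, Lamb1 being the added one. Summed smooth muscle markers were also lower in polysome (8533 to 9232 CPM in Veh and 8220.2 to 9884 in Rosi, against the input values above). Of these 10 markers, 3 were called lower and 1 higher in Veh, and 4 lower and 1 higher in Rosi. Summed mesothelium markers were at 204 to 225 CPM in input Veh and 94.0 to 103 in polysome Veh, and 214 to 239 in input Rosi and 102 to 117 in polysome Rosi, with 4 of 9 called lower in each treatment. Summed adipocyte markers were higher in polysome, at 588 to 789 CPM in Veh and 2129 to 2610 in Rosi, with 1 of 9 called higher and 1 lower in each. Summed macrophage markers were at 16473 to 21424 CPM in polysome Veh and 14774 to 18701 in polysome Rosi, not below input. Progenitor markers were at 648 to 767 CPM in polysome Veh, below input, and 712 to 800 in polysome Rosi. The part of these markers in the members' values was not tested. The medians of the 38 were −0.55 in Veh and −0.53 in Rosi, against 0.02 over all genes in Veh and less than 0.01 in size in Rosi.

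The genes called lower in both treatments were Fn1, Tnc, Eln, Fbln2, Ltbp2 and Hspg2. Fn1 (ENSMUSG00000026193, chromosome 1, 71585520 to 71653200), fibronectin, was at 1567 and 1328 CPM in input Veh and 589, 542 and 760.2 in polysome Veh, and 1434, 1486 and 1671 in input Rosi and 703, 600.5 and 419.9 in polysome Rosi. All polysome values lay below all input values, with log2 fold changes of −1.20 ± 0.18 in Veh and −1.41 ± 0.16 in Rosi (SE; edgeR adjusted p = 6.19e-05 and 4.72e-06). Fbln2 (ENSMUSG00000064080, chromosome 6, 91212455 to 91272540), an elastic fibre and basement membrane fibulin, was at 3309.8 and 2815 CPM in input Veh and 1305, 1335 and 1656 in polysome Veh, and 3049.8, 3054 and 3402 in input Rosi and 1617, 1467 and 1317 in polysome Rosi (−1.10 ± 0.12 and −1.11 ± 0.11). Hspg2 (ENSMUSG00000028763, chromosome 4, 137468769 to 137570630), the heparan sulfate proteoglycan perlecan, was at 586 and 500.5 CPM in input Veh and 167, 182 and 239 in polysome Veh, and 505, 409 and 476 in input Rosi and 239, 209 and 163 in polysome Rosi (−1.47 ± 0.16 and −1.19 ± 0.15). None of these groups overlapped within a treatment, which was common in this comparison. Of all 14042 genes, polysome lay above input with no overlap for 4565 in Veh and 4736 in Rosi. It lay below input with no overlap for 4419 in Veh and 4456 in Rosi.

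Ltbp2, which binds fibrillin microfibrils, was at 586 and 516 CPM in input Veh and 179, 187 and 240.1 in polysome Veh, and 478, 472 and 548 in input Rosi and 243, 215 and 178 in polysome Rosi (−1.45 ± 0.14 and −1.24 ± 0.13). Eln, at 6.36 and 4.42 CPM in input Veh against 1.09, 1.21 and 1.73 in polysome Veh, and 3.25, 2.07 and 2.90 against 1.07, 0.998 and 1.04 in Rosi, had the largest fold of the 6 in Veh (−2.00 ± 0.29, and −1.40 ± 0.28 in Rosi) on the lowest counts. In polysome Rosi, 79.8, 100.0 and 100.0% of its few reads were on transcripts not annotated as protein coding, against 0, 0 and 25.8% in polysome Veh, 0 and 17.1% in input Veh and 23.95, 0 and 0% in input Rosi. Its Rosi value is therefore uncertain, running from −4.94 with protein-coding transcripts only to −0.40 with limma. Tenascin C, Tnc, an anti-adhesive protein of wounds, was at 342 and 320.4 CPM in input Veh and 173, 161 and 155 in polysome Veh, and 279, 372 and 344 in input Rosi and 163, 198 and 135 in polysome Rosi. It sat at the edge of the call (−1.02 ± 0.14 in Veh and −1.003 ± 0.13 in Rosi), and lost it in Veh without polysome Veh replicate 3 or input Veh replicate 1 (−0.99 and −0.97), and in Rosi without polysome Rosi replicate 1 or 3 or input Rosi replicate 2 or 3 (lowest in size −0.88). Fbln2 lost its Veh call without input Veh replicate 1 (−0.97). With limma on TPM, which unlike the counts is corrected for length, Fbln2 lost the call in both treatments (−0.60 in Veh and −0.78 in Rosi). So did Tnc and Eln, while Fn1 lost it in Veh (−0.92) and Hspg2 in Rosi (−0.97). Ltbp2 kept it in both. The seventh call in Rosi, Mmp9 (−1.68 ± 0.68, adjusted p = 0.0456), rested on 0.394, 0.484 and 0.331 CPM in input Rosi and 0.0856, 0.0434 and 0.248 in polysome Rosi, and was lost under 13 of 20 alternatives.

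The gene called higher was Tgfbr1 (ENSMUSG00000007613, chromosome 4, 47353222 to 47414931), the type I TGF-beta receptor kinase. It was at 131, 102 and 102 CPM in input Rosi and 233, 243 and 268 in polysome Rosi, a log2 fold change of 1.15 ± 0.12 (SE; edgeR adjusted p = 2.86e-06). In Veh it was at 141 and 148 CPM in input and 308, 239.7 and 229.9 in polysome (0.84 ± 0.14, adjusted p = 0.000186), short of the size for a call, and polysome lay above input in both. Postn, periostin, a fibroblast protein of healing tissue, had 0.63 ± 0.15 and 0.83 ± 0.14, and Lox 0.30 ± 0.13 and 0.47 ± 0.12, with an adjusted p of 0.0727 in Veh and 0.00335 in Rosi for Lox. Dcn (decorin) had 0.24 ± 0.16 and 0.54 ± 0.14 (adjusted p = 0.228 and 0.00512).

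Below, by role, are the genes that passed an adjusted p of 0.05 whatever the size, beside Tgfbr1, Lox, Dcn, Ltbp2 and Mmp9 above. Of the 7 adhesive and matricellular genes, 6 were lower and Postn was higher in both. Sparc had −0.71 ± 0.09 in Veh and −0.53 ± 0.08 in Rosi. Thbs1, a thrombospondin that can activate latent TGF-beta, had −0.57 and −0.53, and Thbs2 had −0.60 and −0.54. Of the 4 proteoglycans, Bgn was lower in both (−0.53 ± 0.11 and −0.71 ± 0.10). Of the 7 elastic fibre and cross-linking genes, 5 were lower in both, Eln and Fbln2 above, the microfibril gene Fbn1 (−0.59 and −0.58) and the lysyl oxidase-like enzymes Loxl1 (−0.53 and −0.39) and Loxl2 (−0.51 and −0.64). Serpinh1 was lower in both as well (−0.72 ± 0.10 and −0.56 ± 0.09). Lum, Vcan and Fbln5 passed in neither. In the basement membrane 4 of 6 were lower in both treatments (Nid2, Hspg2, Lama4 and Lamc1), and Nid1 in Rosi (−0.35, adjusted p = 0.00734). Mmp2 and Mmp14 were lower in both treatments, Mmp2 with −0.74 and −0.80 and Mmp14 with −0.72 ± 0.15 and −0.89 ± 0.13. Timp3 was lower in Rosi (−0.35 ± 0.09, adjusted p = 0.00479) and did not pass in Veh (−0.02 ± 0.10, adjusted p = 0.876). Timp1 and Timp2 passed in neither treatment, with log2 fold changes from −0.14 to 0.10. Lamb1 did not pass in Veh (−1.73 ± 0.79, edgeR adjusted p = 0.0805) or in Rosi (−0.62 ± 0.70), and with the unannotated transcript added it was −0.47 ± 0.10 and −0.61 ± 0.09 (SE). Of the 3 TGF-beta ligands Tgfb1 was lower in both (−0.89 ± 0.17 and −0.54 ± 0.15), and Tgfb2 and Tgfb3 passed in neither. Ltbp1 was lower in both (−0.32 ± 0.13, adjusted p = 0.0459, and −0.30 ± 0.11, adjusted p = 0.0365), and Tgfbr2 passed in neither. Across the 38 genes the log2 fold changes in Veh and in Rosi, which rest on separate libraries, had r = 0.89 (rho = 0.92), and over 14042 genes r = 0.69 (rho = 0.84), a description across genes that are not independent replicates.

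**Figure D3:**
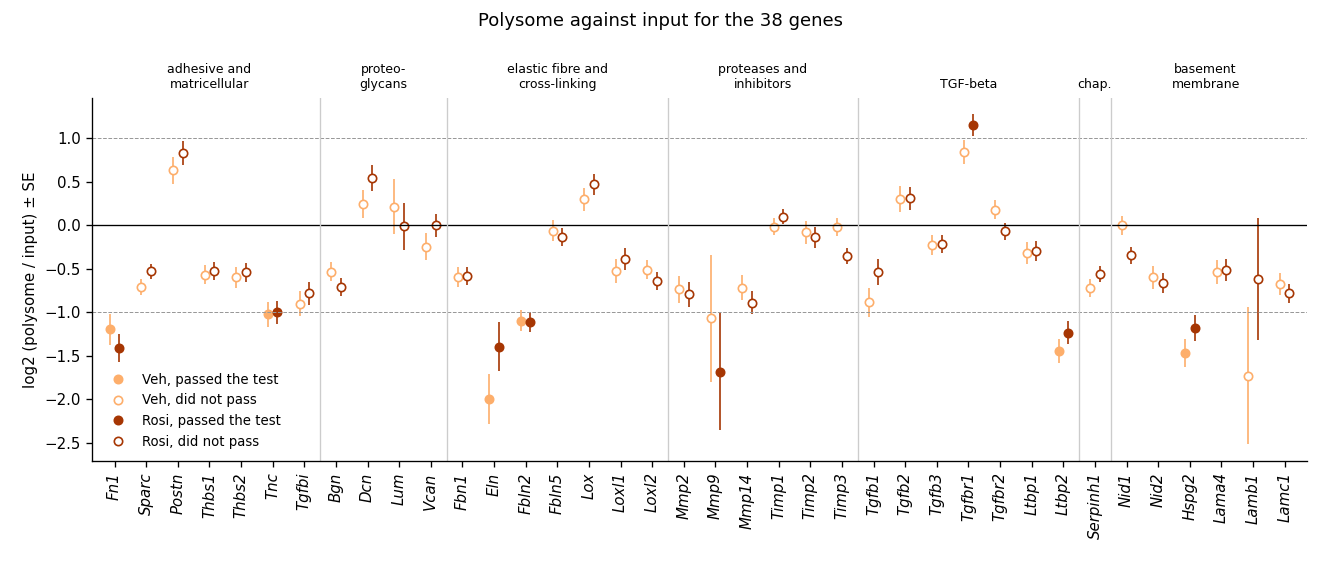
Log2 ratio of polysome to input (y axis, with SE) for the 38 genes (x axis, grouped by role; chap., collagen chaperone) in Veh (light) and Rosi (dark). Filled points passed both the adjusted p and the 2-fold limit, and dashed lines mark the 2-fold limits. Most points lie below 0, and Postn, Dcn, Lox, Tgfb2 and Tgfbr1 lie above it in both treatments.

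Base composition and length of the transcripts ran along with these values. The GC content of each gene's main coding transcript was between 41.0% (Tgfbr1) and 62.5% (Tgfb1) in the 38 genes, with a median of 52.5% against 50.3% over all genes. Across the 38 genes its correlation with log2 polysome over input was r = −0.76 in Veh and −0.75 in Rosi, and over all 13519 genes with a value r = −0.57 and −0.64. All 10 members at or above 55% GC, Eln, Fbln2, Hspg2, Loxl1, Ltbp2, Mmp14, Mmp2, Mmp9, Serpinh1 and Tgfb1, were below 0 in both treatments, as were 87.5% and 86.1% of all genes in that range. Of the 6 members under 45%, Vcan was below 0 in Veh, and Vcan and Lum in Rosi. The members' medians lay below those of all genes at both ends, with values in Veh of 0.27 against 0.53 under 45% and −0.98 against −0.52 from 55%. The median coding length was 2119.5 bases in the members and 1326 over all genes, and its correlation on the log2 scale was r = −0.49 in Veh and −0.43 in Rosi (−0.30 and −0.31 over all genes). These points are genes read in the same libraries, and no cause was tested.

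Short stretches of coding sequence illustrate the contrast in GC content. They come from members picked at the extremes and are examples, not a test. Shown are 120 bases from the middle of the longest coding exon for the members with the highest and the lowest polysome over input in Veh, among those with an adjusted p under 0.05 and a mean of at least 10 CPM, from the GRCm38 genome, 5′ to 3′ on the gene's strand, with G and C in capitals.
Tgfbr1 (chr4:47383812-47383931, plus strand, exon 2 of 9, 41.7% GC): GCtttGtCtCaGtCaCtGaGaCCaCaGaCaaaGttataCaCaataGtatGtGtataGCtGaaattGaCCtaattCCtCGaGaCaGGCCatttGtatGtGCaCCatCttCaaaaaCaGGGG
Postn (chr3:54372051-54372170, plus strand, exon 8 of 21, 45% GC): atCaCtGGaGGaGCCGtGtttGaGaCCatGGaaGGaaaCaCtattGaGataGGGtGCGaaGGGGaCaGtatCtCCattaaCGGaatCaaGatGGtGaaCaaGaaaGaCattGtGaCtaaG
Hspg2 (chr4:137557248-137557367, plus strand, exon 77 of 97, 60.0% GC): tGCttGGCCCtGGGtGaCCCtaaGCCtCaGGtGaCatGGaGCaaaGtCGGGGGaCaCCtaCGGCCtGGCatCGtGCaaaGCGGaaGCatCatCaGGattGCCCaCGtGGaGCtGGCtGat
Ltbp2 (chr12:84875934-84876053, minus strand, exon 1 of 36, 70.0% GC): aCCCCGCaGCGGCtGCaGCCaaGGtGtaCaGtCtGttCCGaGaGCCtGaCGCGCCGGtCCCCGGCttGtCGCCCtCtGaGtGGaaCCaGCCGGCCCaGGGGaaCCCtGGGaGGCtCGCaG
The first pair, higher in polysome, comes from transcripts of 41.0% and 44.3% GC, and the second pair, lower, from 60.9% and 58.5%.

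When each library's trend with GC content was taken out as an offset, an alternative chosen after seeing the data, the median of the members moved to −0.31 in Veh and −0.43 in Rosi. The calls went from 6 to 1 in Veh (Eln, −1.43) and from 8 to 1 in Rosi (Fn1, −1.11), and Tgfbr1 went to 0.39 in Rosi. With an offset for coding length the medians were −0.30 and −0.32.

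**Figure D4:**
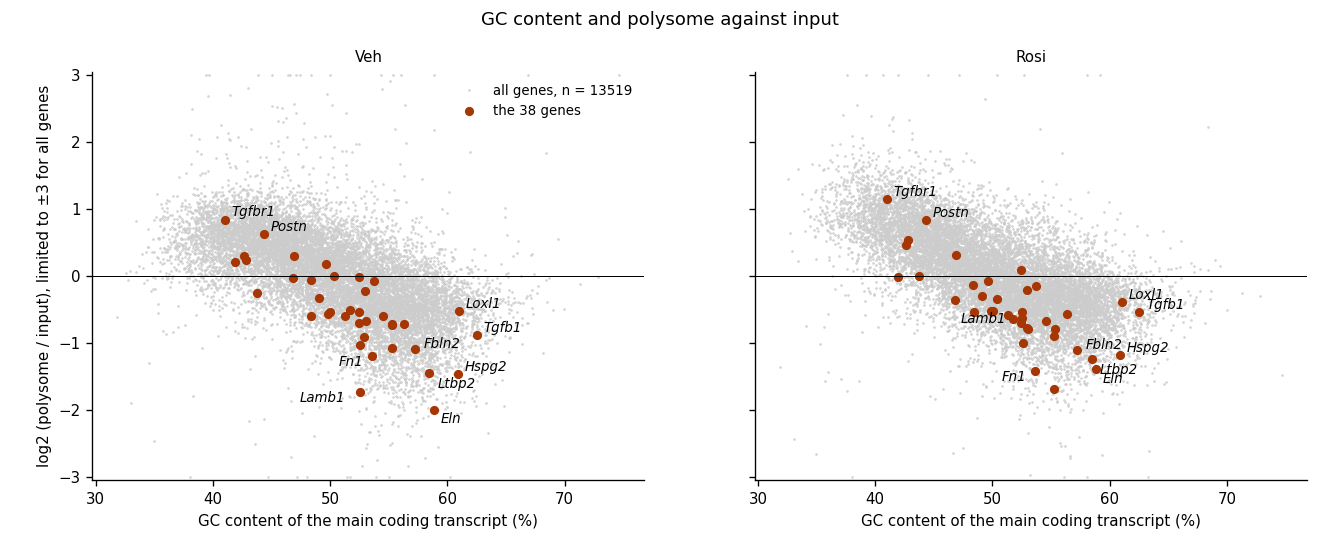
Log2 ratio of polysome to input (y axis) against the GC content of the main coding transcript in percent (x axis), in Veh (left) and Rosi (right), for all genes with a value (grey, n = 13519, limited to ±3) and the 38 genes (brown). Both clouds slope down, from Tgfbr1 and Postn at low GC to Hspg2, Ltbp2 and Eln at high GC.

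The make-up of the counts by annotated transcript also shifted between fractions in some members. For Fn1, the transcript Fn1-202, annotated as a retained intron and not as coding, held 38.5 and 41.9% of the gene's reads in input Veh and 61.0, 51.7 and 46.9% in polysome Veh, and 43.7, 41.1 and 36.4% in input Rosi and 45.9, 49.0 and 53.1% in polysome Rosi. Polysome lay above input in each treatment. For Fbln2, Fbln2-206, of the same class, held 24.7 and 27.6% in input Veh and 51.7, 48.6 and 45.1% in polysome Veh, and 28.9, 28.6 and 25.9% in input Rosi and 45.3, 46.2 and 50.8% in polysome Rosi. Ltbp1-206 went from 11.3 and 19.2% to 30.7, 29.1 and 22.0% in Veh and from 13.3, 9.37 and 9.42% to 30.4, 26.6 and 36.2% in Rosi. Among the members with at least 100 reads in every library and on average at least 5% of reads on transcripts not annotated as protein coding, 5 of 6 had a higher such share in polysome with no overlap in each treatment (Fbln2, Fn1, Hspg2, Ltbp1 and Mmp2). Fbln5 had a lower one. The 5% average was taken over all libraries, polysome included, so a high polysome share helps a gene to enter. Mmp2 entered in this way, at 0 and 4.72% in input Veh and 3.82, 6.64 and 4.77% in input Rosi. Its polysome shares ran from 7.66 to 10.0% in Veh and from 8.13 to 11.6% in Rosi. Over the 2065 genes under the same limits, 24.3% were higher and 13% lower in Veh, and 20.4% and 11.1% in Rosi.

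Fn1-202 and Fbln2-206 largely repeat the 3′ part of the coding mRNA. Of the 4022 bases of Fn1-202, 84.4% lie in exons 27 to 45 of the 45 exons of Fn1-214, the main coding transcript, and 626 are a whole intron kept between them. Of the 1612 bases of Fbln2-206, 95.2% lie in exons 12 to 17 of the 17 exons of Fbln2-202, and 77 are the end of an intron. Salmon divides reads from shared exons between such transcripts by estimate. The intron bases that tell them apart are shown at their edges, 30 bases on each side on the gene's strand, with exon bases in capitals.
Fn1-202, start of the intron (chr1:71598344-71598403, minus strand): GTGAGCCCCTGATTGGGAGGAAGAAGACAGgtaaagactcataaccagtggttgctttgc
Fn1-202, end of the intron (chr1:71597718-71597777, minus strand): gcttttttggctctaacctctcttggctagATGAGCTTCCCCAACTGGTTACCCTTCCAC
Fbln2-206, end of the intron (chr6:91265926-91265985, plus strand): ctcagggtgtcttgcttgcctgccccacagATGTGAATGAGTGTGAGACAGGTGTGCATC
Counting the transcripts annotated as protein coding alone, polysome over input was −1.58 for Fn1 in Veh and −1.66 in Rosi, and −1.60 and −1.55 for Fbln2. The reads left out held a larger share in polysome, so leaving them out lowers these ratios by construction. This count is therefore no check on the calls.

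**Figure D5:**
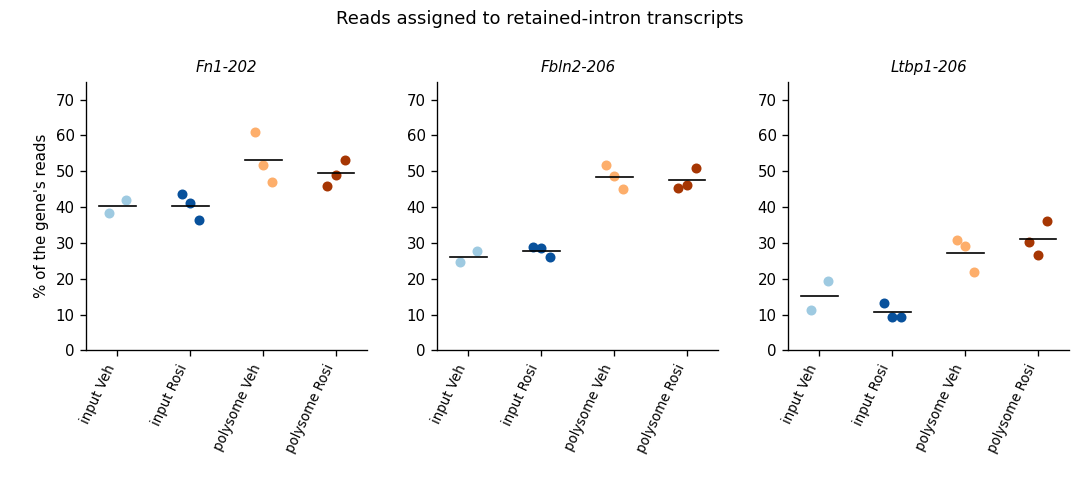
Percent of the gene's estimated reads (y axis) on the retained-intron transcripts Fn1-202, Fbln2-206 and Ltbp1-206 in each library (points) with the group mean (line). Both polysome groups stand above both input groups for all 3 transcripts.

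The last comparison asked whether Rosi changed polysome over input, which the study terms translation efficiency, by the interaction of fraction and treatment. The study's article ran this interaction on single transcripts and reported raised and lowered ones, with periostin among the raised. Here gene sums were tested and the identical input Veh libraries counted once, so the counts are not like for like. As a gene sum, Postn had 0.20 ± 0.20 (SE; edgeR adjusted p = 0.83). No gene of 14042 was called by edgeR (0%), and so none of the 38, DESeq2 called 1, which was no member, with 6.84% of all genes at an unadjusted p under 0.05. That p was met by 2 members. Nid1 had a difference of −0.35 ± 0.15 (SE; edgeR adjusted p = 0.719), with polysome over input of 0.00 in Veh and −0.35 in Rosi. Timp3 had −0.33 ± 0.14 (SE; edgeR adjusted p = 0.719), from −0.02 in Veh and −0.35 in Rosi. Other genes of smallest p in their roles were Eln (0.60 ± 0.40), Tgfbr2 (−0.25 ± 0.14), Dcn (0.30 ± 0.22), Sparc (0.18 ± 0.13) and Serpinh1 (0.16 ± 0.14). Lamb1 had 1.11 ± 1.05 alone and −0.14 ± 0.14 with the unannotated transcript, and was called without polysome Veh replicate 1 (3.45, edgeR adjusted p = 0.0365). So the rise of Nid1 in input is not shown to differ from its change in polysome.

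A wider list of 110 other matrix and TGF-beta genes, of which 105 were tested in input, was set beside the members. In input Rosi against Veh, 2 were called higher and none lower (1.13% and 0.206% of all genes). They were Smad7 (0.49 ± 0.11, edgeR adjusted p = 0.0399) and Pmepa1 (0.42 ± 0.09, edgeR adjusted p = 0.0399), both feedback inhibitors of TGF-beta signalling that the pathway induces. Smad7 was at 39.2 and 46.3 CPM in input Veh and 61.9, 57.0 and 53.3 in input Rosi, and Pmepa1 at 121 and 136 CPM in input Veh and 164, 165 and 163 in input Rosi. In polysomal RNA none of 102 was called, with 3 at an unadjusted p under 0.05, and the smallest p belonged to Mmp15 (0.56 ± 0.14, adjusted p = 0.18) and Inhba (−0.31 ± 0.14, edgeR adjusted p = 1). Over all genes, 0.655% were called in polysomal RNA and 4.73% had an unadjusted p under 0.05. In polysome against input, 19 of 105 were called lower and 1 higher in Veh and 13 lower and 5 higher in Rosi, with medians of −0.40 and −0.32. Of all genes, 6.68% were called lower and 2.99% higher in Veh, and 4.86% and 6.49% in Rosi. The lower ones included basement membrane genes, the laminin chains Lamb2 (−1.76 in Veh and −1.44 in Rosi) and Lama5 (−1.41 and −1.25) and agrin, Agrn (−1.63 and −1.43). They also included the latent TGF-beta binding protein Ltbp4 (−1.56 and −1.22) and the collagen lysyl hydroxylase Plod1 (−1.45 and −1.12). The others called lower in both were Pcolce, Fbln1, Emilin1, Loxl3, Ecm1 and Plod3. In Veh alone Ltbp3, Mmp15, Prelp, Thbs3, Comp, Vtn, Lamb3 and Has1 were called, and in Rosi alone Mmp28 and Adamts4, and the difference between treatments was called for none of them. The higher ones were the membrane proteases Adam9 (1.04 and 1.09) and, in Rosi, Adam10 (1.16), the small proteoglycans Ogn (1.33) and Aspn (1.01), and the hyaluronan synthase Has2 (1.20). In translation efficiency edgeR called none of 105, with 5 at an unadjusted p under 0.05 (0% and 6.84% of all genes). Ogn (1.03 ± 0.30) and Mmp15 (0.47 ± 0.17) had the smallest p (edgeR adjusted p = 0.719 for both).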

How the data were processed

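The authors demultiplexed the reads with bcl2fastq (version 2.17), checked them with FastQC and quantified them with Salmon against mouse mm10. The Salmon version and transcript set are not given in the sources used here. Reads came from polyadenylated RNA, and cycloheximide was added before lysis. Each deposited file held, per transcript, an estimated count, a TPM value (scaled by the authors' software to 1e+06 per library) and 2 other columns, length and effective length. Of 117135 transcripts per file, 115973 matched GENCODE M21 and were summed to 35523 genes, and the 1162 unmatched, with 0.381 to 0.464% of reads, were left out. The members were taken from the given list and the roles, markers and wider list were chosen with earlier results of these data known. Replicates are labelled biological, and whether they were separate cultures or animals is not stated, so p-values measure the spread between these libraries.

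Counts were rounded, filtered by filterByExpr, scaled by TMM and tested with edgeR 4.0.16 (R 4.3.3; quasi-likelihood, Benjamini-Hochberg). Rosi and Veh were compared within each fraction, and polysome and input with their interaction in 1 fit of 4 groups. The scripts were first run on simulated counts with known changes. DESeq2 1.42.0, limma 3.58.1 on log2(TPM + 1), other filters, normalizations, transcript sets and fits, and leaving out each library, were alternatives. Values per library are given for members called in any comparison, highest in TPM in their role, or of smallest p in their role and comparison. In the wider list all called genes are named, or the 2 of smallest p. Coding sequences and junctions were read from the GRCm38 genome (NCBI copy) with samtools 1.23.1 and GENCODE M21 coordinates.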

Additional observations from a re-analysis of the deposited data

Results flagged for a closer look

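A transcript outside the annotation, left out of the gene sums, reached 81.8 CPM in input Rosi replicate 3, where annotated Lamb1 was at 74.1 CPM, and was at 0 in 4 of the 11 libraries. It was singled out because its reads ran opposite to those of Lamb1 and it enters none of the comparisons above except where it is named. The difference it makes to Lamb1 is given with the Lamb1 results.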

How the results depend on the processing

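No member called in the report changed direction under any alternative run, while the members' median log2 fold changes in Rosi against Veh lay near 0 and crossed it when single libraries were left out (−0.02 to 0.10 in input and −0.03 to 0.03 in polysome). Of 433 values recomputed for the lists, 56 moved. In input Rosi against Veh, the 182 genes called became 400 with DESeq2, 907 with no count filter, 1054 with all 12 libraries as deposited, 57 with limma and 77 in 1 fit of 4 groups. The 2 members called higher became 1 (Nid1) with the replicate block, with protein-coding transcripts only or in 1 fit, and 0 with limma, and with no count filter 2 were called lower (Eln and Tgfb1). In polysome Rosi against Veh, the 88 genes became 189 with no count filter and 37 with limma. Lamb1 was the 1 member called higher with no count filter or the replicate block, and Eln the 1 called lower with protein-coding transcripts only. Polysome against input in Veh gave 1358 genes, and 6929 without the fold limit (members 22 lower and 2 higher), 844 with limma (2 members lower, median −0.38) and 524 with the GC offset (1 lower, median −0.31), and the coding length offset left 2 lower (median −0.30). In Rosi, 1593 became 7731 without the fold limit (25 lower and 4 higher), 876 with limma (2 lower and 2 higher) and 534 with the GC offset (1 lower and 0 higher), and the coding length offset left 1 lower and 2 higher (median −0.32). For translation efficiency the count of 0 became 1 with DESeq2, 57 with no count filter (1 member higher, Lamb1), 1 with protein-coding transcripts only and 6 with the GC offset. Leaving out 1 library at a time gave 66 to 1580 genes in input Rosi against Veh (members 0 to 2 higher and 0 to 3 lower), 55 to 179 in polysome Rosi against Veh (0 to 1 higher and 0 to 0 lower), 995 to 1705 in polysome against input in Veh (5 to 7 lower), 1351 to 1769 in Rosi (5 to 7 lower) and 0 to 9 for translation efficiency (0 to 1 higher). The cause of these shifts was not tested. The labels do not say that a replicate number marks a shared culture, and deviations of libraries with one number had r from −0.23 to 0.11. With 2 input Veh libraries these deviations mirror each other, so the check cannot settle pairing there, and the replicate block is given as an alternative only. Tgfbi was called lower in polysome in Veh without polysome Veh replicate 2 (−1.09) or input Veh replicate 1 (−1.03), and Tgfb1 without the latter (−1.04).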
